A study of Mus musculus with 48 samples.

Results

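A set of 40 genes of the cell cycle, of 20697 named genes on the arrays, was followed in the gut and liver of mice that had received a faecal transplant. A gene was a member where the symbol of a transcript cluster, the probe set of an array for 1 gene region, was on a list of 4 G1 regulators, 17 genes of S phase and 19 genes of mitosis. All 40 were found, in 45 clusters, and the brightest cluster of a gene was used. The rule uses gene names and no expression value, although the list was drawn up with earlier results of these data known.

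The recipients were age-matched male C57BL/6J mice, and each was fed a normal diet. The donors of the transplant had eaten normal chow (NC), a high-fat diet (HF) or a ketogenic diet (KD). The labels also mention germ-free C57BL/6J males and do not say whether the recipients were germ-free, so what the recipients' own microbiota was is not known here. Tissue was taken at zeitgeber time ZT0, when the light goes on, or at ZT12, when it goes off, in a cycle of 12 h light and 12 h dark. Liver and a gut sample written "Gut (DI)", an abbreviation the labels do not spell out, gave 12 groups of 4 arrays, 48 in all. The comparisons ask whether cell cycle transcripts differ between the tissues, between the times of day and between donor diets.

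A dividing cell passes through G1, copies its DNA in S phase and separates the copies in mitosis. Cyclins with their kinases drive these steps, inhibitors such as the product of Cdkn1a restrain them, and E2F factors switch on many S phase genes. The intestinal epithelium is renewed continuously from dividing cells in the crypts, whereas most hepatocytes of an adult liver are at rest. The circadian clock is known to reach the cell cycle in liver, where the kinase gene Wee1 is a textbook target of the clock.

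Marker genes matched the labelled tissues. The mean level of 10 hepatocyte genes was between 12.94 and 13.07 in the liver arrays and between 7.52 and 9.16 in gut, on the scale log2(intensity + 16) used throughout for levels. The 9 enterocyte genes lay between 11.11 and 12.45 in gut and between 7.79 and 8.37 in liver, and goblet cell, Paneth cell and smooth muscle genes were also bright in gut. The gut arrays stood apart from each other in their B cell markers: the mean of 9 such genes ran from 5.63 to 9.32, with all 4 arrays of NC donors at ZT12 between 8.19 and 9.29 and all 4 of KD donors at ZT12 between 5.63 and 5.77. In liver the same mean stayed between 6.02 and 6.35. Median intensity was between 124.9 and 135.8 in gut and between 88.2 and 104.4 in liver, and the number of arrays limits the precision. Nothing but titles and labels says that samples are separate animals, so p-values may measure technical spread. Pcna has 2 clusters and Ccnb1 and Top2a have 3 each, and which copy or part of the gene their probes measure is uncertain. The Top2a clusters differ in level.

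The promoters show how S phase and mitosis genes differ in ways that the choice of members did not use. The sequences are RefSeq's for GRCm38.p6, from 250 bases before to 50 after the start of a transcript, and 32 of the 40 members have at least 1. Both strands were searched for an E2F site (TTTCGCGC, TTTGGCGC, TTTCCCGC or TTTGCCGC), the cell cycle genes homology region or CHR (TTTGAA or TTCGAA), and the CCAAT box (CCAAT). In Mcm6 E2F hits on opposite strands overlap, and in 1 member promoter an E2F site and a CCAAT box overlap. An E2F site was present in 7 of 16 promoters of S phase members (43.8%), in 1 of 15 of mitosis members (6.67%) and in 2.26% of all 32851 promoters. A CHR was present in 11 of 15 mitosis promoters (73.3%), 3 of 16 S phase promoters (18.8%) and 19.2% of all promoters. Each of those 11 also held a CCAAT box, a pair found in 7.52% of all promoters. These are matches of letters, not shown binding sites.

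The first set gives mitosis promoters, with CHR and CCAAT letters in capitals on either strand. Plk1, Bub1 and Bub1b encode a mitotic kinase and 2 kinases of the spindle checkpoint, and all fell in gut at ZT12. Mki67 and Top2a encode the proliferation antigen Ki-67 and the topoisomerase that untangles chromosomes. With the clusters used, they differed most between the tissues among the mitosis members.
Plk1, chr7:122159185-122159484, plus strand: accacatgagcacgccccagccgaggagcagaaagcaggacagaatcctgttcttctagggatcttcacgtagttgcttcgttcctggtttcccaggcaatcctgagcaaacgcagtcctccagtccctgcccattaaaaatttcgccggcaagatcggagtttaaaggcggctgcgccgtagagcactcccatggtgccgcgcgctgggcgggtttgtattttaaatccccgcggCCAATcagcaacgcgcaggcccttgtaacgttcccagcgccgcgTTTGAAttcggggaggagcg
Bub1, chr2:127831810-127832109, minus strand: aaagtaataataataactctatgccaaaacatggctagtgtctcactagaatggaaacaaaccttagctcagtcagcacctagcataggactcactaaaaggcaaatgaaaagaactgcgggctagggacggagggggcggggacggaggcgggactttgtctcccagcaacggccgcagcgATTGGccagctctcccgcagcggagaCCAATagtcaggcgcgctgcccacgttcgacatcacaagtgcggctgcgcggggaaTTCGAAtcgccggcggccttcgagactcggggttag
Bub1b, chr2:118597961-118598260, plus strand: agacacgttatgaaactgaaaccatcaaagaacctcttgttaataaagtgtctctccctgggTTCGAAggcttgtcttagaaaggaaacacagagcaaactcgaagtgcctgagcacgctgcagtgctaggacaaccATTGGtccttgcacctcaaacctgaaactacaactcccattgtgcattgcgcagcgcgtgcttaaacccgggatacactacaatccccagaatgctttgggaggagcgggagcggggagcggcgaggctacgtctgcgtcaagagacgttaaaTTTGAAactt
Mki67, chr7:135716330-135716629, minus strand: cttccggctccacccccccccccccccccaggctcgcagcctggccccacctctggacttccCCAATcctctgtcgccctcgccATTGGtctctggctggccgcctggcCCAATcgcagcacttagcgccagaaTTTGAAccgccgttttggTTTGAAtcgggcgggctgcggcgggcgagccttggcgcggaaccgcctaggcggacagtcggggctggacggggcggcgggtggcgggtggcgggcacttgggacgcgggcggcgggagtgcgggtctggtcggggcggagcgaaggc
Top2a, chr11:99024140-99024439, minus strand: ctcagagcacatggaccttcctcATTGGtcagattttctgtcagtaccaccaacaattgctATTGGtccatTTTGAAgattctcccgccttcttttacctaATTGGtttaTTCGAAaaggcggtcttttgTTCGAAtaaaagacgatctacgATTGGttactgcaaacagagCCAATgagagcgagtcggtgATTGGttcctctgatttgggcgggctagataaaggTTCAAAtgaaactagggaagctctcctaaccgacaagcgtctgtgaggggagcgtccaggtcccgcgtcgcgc

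The second set gives promoters of 3 subunits of the MCM helicase, the ring that opens DNA for copying, with the E2F sites in capitals. Their transcripts fell at ZT12 in the gut of mice with HF donors. Promoters of Cdc6, Cdk2, Cdt1 and Mcm5 also hold an E2F site, and these genes were not called there. A link between the sites and the fall was not tested. Mcm7 has a second promoter entry with no such site.
Mcm3, chr1:20820263-20820562, minus strand: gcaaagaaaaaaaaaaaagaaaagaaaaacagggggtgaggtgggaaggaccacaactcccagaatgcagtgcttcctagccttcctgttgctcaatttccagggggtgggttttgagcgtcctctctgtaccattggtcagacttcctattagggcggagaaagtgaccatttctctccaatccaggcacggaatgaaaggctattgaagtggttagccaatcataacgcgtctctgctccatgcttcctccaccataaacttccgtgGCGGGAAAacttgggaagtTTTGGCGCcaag
Mcm6, chr1:128359656-128359955, minus strand: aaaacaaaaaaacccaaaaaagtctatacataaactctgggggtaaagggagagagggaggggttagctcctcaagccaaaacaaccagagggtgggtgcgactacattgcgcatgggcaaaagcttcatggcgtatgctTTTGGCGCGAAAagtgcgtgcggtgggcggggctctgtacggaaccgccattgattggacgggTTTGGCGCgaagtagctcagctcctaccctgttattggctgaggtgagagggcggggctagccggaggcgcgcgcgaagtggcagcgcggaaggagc
Mcm7, chr5:138171834-138172133, minus strand: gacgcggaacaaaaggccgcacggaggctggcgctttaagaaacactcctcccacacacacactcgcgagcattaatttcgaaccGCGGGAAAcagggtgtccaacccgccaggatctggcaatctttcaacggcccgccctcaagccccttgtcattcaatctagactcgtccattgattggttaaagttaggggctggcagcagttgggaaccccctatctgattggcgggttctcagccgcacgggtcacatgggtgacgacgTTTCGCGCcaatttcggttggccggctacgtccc

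Cdkn1a, which had the largest difference between times of any member, is a textbook target of the factor p53. Its upstream promoter entry holds 2 p53 half-sites, in capitals, and its downstream entry holds none. A half-site was looked for after the sequence had been seen, and 8.36% of all promoters hold one.
Cdkn1a, chr17:29090729-29091028, plus strand: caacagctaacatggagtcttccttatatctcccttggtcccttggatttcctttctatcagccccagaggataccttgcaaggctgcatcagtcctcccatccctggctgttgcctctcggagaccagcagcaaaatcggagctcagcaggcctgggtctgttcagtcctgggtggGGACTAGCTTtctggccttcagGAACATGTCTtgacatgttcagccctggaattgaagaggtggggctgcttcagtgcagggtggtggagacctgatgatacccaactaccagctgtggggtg

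Cell cycle transcripts were far brighter in gut than in liver, and the mitosis genes more than the S phase genes. Gut minus liver, averaged over the 6 groups of donor and time, had a median of 1.72 over the 19 mitosis members and 0.58 over the 17 S phase members on the log2 scale. The median over all genes was -0.10. All 40 members passed adjusted p 0.05 (limma, Benjamini-Hochberg over all genes), 37 of them higher in gut and 3 lower, where 86.4% of all genes passed, 34.3% higher and 52% lower. In 28 members every gut array lay above every liver array, against 15.4% of all genes. That was so for 18 of 19 mitosis members, 8 of 17 S phase members and 2 of 4 G1 regulators. In whole tissue, more dividing cells and more RNA per cell cannot be told apart.

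**Figure D1:**
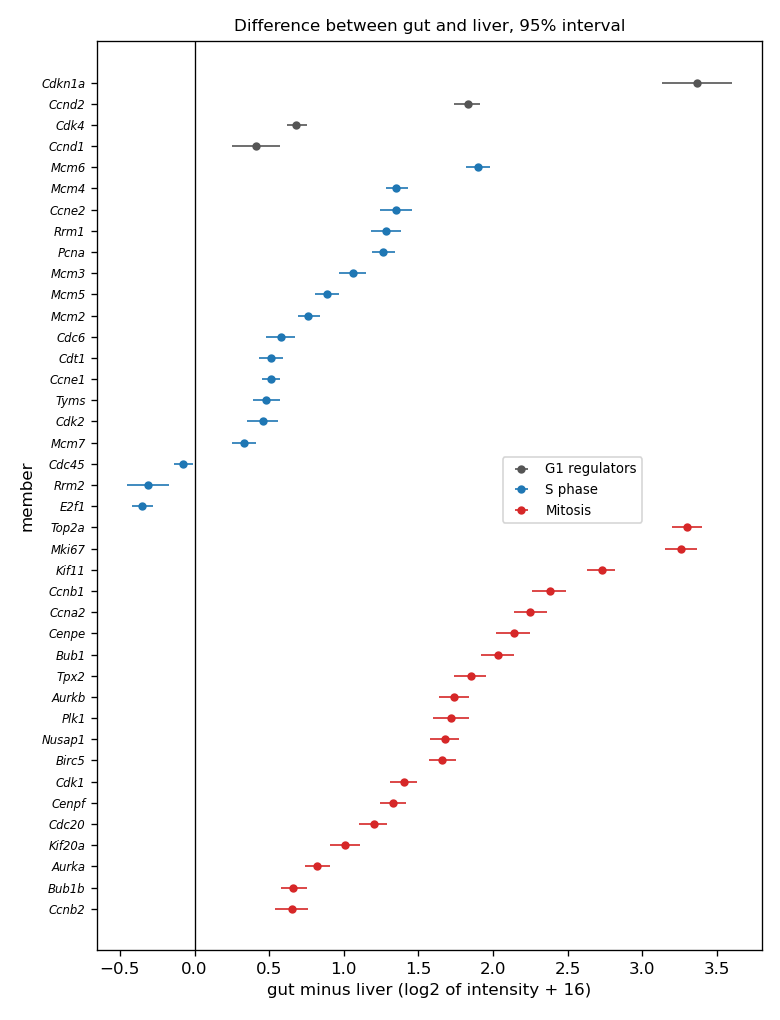
Gut minus liver for each of the 40 members, in log2 of intensity + 16, with points for the difference over 48 arrays and bars for its 95% interval, coloured by role. All 19 mitosis members lie between 0.65 and 3.30, and 3 S phase members (Cdc45, Rrm2 and E2f1) lie below 0.

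Mki67 lay between 9.25 and 10.15 in the 24 gut arrays, with a median of 9.77, and between 6.23 and 6.78 in the 24 liver arrays, with a median of 6.45. The tissues did not overlap, and the difference was 3.26 ± 0.05 (SE, adjusted p = 1.7e-40). Top2a lay between 8.99 and 9.88 in gut and between 5.91 and 6.37 in liver, a difference of 3.30 ± 0.05 (limma, adjusted p = 2.48e-42). The cluster used had a mean intensity of 796.7 in gut and 47.0 in liver. Other Top2a clusters had 286.3 and 100.6, and 103.0 and 12.9, so the size of the difference depends on the cluster. The cluster used was the brightest over both tissues together. It was the brightest in gut but not in liver, so its gut level decided the choice. Such a choice favours a large difference, and the p-value of Top2a does not allow for it. Kif11, the kinesin that pushes spindle poles apart, differed by 2.73 ± 0.05. Mki67, Top2a and Kif11 were as dim in liver as genes that are silent there, so these differences are limited by the background of the probes and are not given as folds. The smallest differences among mitosis members were those of cyclin B2 (Ccnb2, 0.65 ± 0.05), Bub1b (0.66 ± 0.04) and the spindle pole kinase Aurka (0.82 ± 0.04).

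Among S phase members the helicase subunits Mcm6 and Mcm4 led, with differences of 1.90 ± 0.04 and 1.35 ± 0.04, next to cyclin E2 (Ccne2, 1.35 ± 0.05). Pcna, the sliding clamp of the DNA polymerases, lay between 10.11 and 10.64 in gut and between 8.93 and 9.53 in liver, a difference of 1.26 ± 0.04. Mcm2 differed by 0.76 ± 0.04, with gut arrays from 7.43 to 8.15 and liver arrays from 6.79 to 7.37. Mcm6, Mcm4, Ccne2 and Mcm2 were as dim in liver as genes that are silent there. The background of the probes thus limits their differences too. The S phase members lower in gut were 3: the transcription factor E2f1 (-0.35 ± 0.03), the ribonucleotide reductase subunit Rrm2 (-0.31 ± 0.07) and the replication factor Cdc45 (-0.08 ± 0.03). Without the quantile step, which moved the median of all genes to 0.26, E2f1, Rrm2 and Cdc45 stood at 0.01, 0.08 and 0.33, so their direction depends on the scaling. The call of Cdc45 was also lost without any of 10 single arrays. Rrm2 in liver spanned 6.49 to 8.18, which enclosed the gut range of 6.39 to 7.36 but for its lowest end.

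The G1 regulator Cdkn1a, encoding the inhibitor p21, was higher in gut by 3.37 ± 0.12. No fold is given for Cdkn1a, which was dim in liver at ZT12. Its gut arrays were close together, between 10.55 and 11.28, while its liver arrays ran from 5.57 to 10.62 and overlapped the gut at 1 array. Cyclin D2 (Ccnd2) was higher in gut by 1.83 ± 0.04, its partner kinase Cdk4 by 0.68 ± 0.03 and cyclin D1 (Ccnd1) by 0.41 ± 0.08.

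Further genes of the same pathways, listed but not members, also differed. Of all genes 34.3% were higher in gut and 52% lower. Of 32 other S phase genes 22 were higher and 5 lower in gut, and of 37 other mitosis genes 33 were higher and 2 lower. Those higher in gut included the replication kinase activator Dbf4 (1.42 ± 0.06), the primase subunit Prim1 (1.30 ± 0.05), the mitotic ubiquitin enzyme Ube2c (2.23 ± 0.05) and the cytokinesis protein Anln (2.0 ± 0.04).

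Many members were dim in liver. As a yardstick, 95% of 1098 olfactory receptor genes, which are silent outside the nose, had a mean level below 6.90 in liver and below 7.17 in gut. In liver 16 of 19 mitosis members, 9 of 17 S phase members and 0 of 4 G1 regulators lay below that level, against 44.1% of all genes. In gut 2 members, E2f1 and Cdc6, did, against 42.5% of all genes. These levels are means over both times, and at ZT12 alone Cdkn1a had a liver mean of 6.23. On the log2(intensity + 16) scale a difference understates the change of a dim gene.

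In liver 2 of 4 G1 regulators, 6 of 17 S phase members and 2 of 19 mitosis members changed between ZT0 and ZT12. Averaged over the donors, 6 members rose (Rrm2, Ccnd1, Ccne1, Cdt1, Ccne2 and Cdc45) and 4 fell (Cdkn1a, Kif11, Mcm7 and Ccnb1). These 10 are 25% of the members, while 28.3% of all genes passed, 13.2% higher and 15.1% lower, so the count as such does not set the members apart. The median over the 19 mitosis members was -0.05 and over the 17 S phase members 0.04, against 0.01 over all genes. Of the 10 called, 5 were dim in liver (Ccne1, Ccne2, Cdt1, Ccnb1 and Kif11). The call of Cdc45 was lost without any of 5 single arrays, and the other 9 passed without any 1 array.

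Cdkn1a fell by 2.37 ± 0.22 on the log2 scale from ZT0 to ZT12 (limma, adjusted p = 1.06e-08). Its liver mean at ZT12 was 6.23, below the olfactory receptor yardstick of 6.90. The size of the fall is thus limited by the background of the probes and is not given as a fold. With NC donors its 4 arrays stood at 7.63, 7.68, 8.74 and 8.94 at ZT0 and at 6.13, 6.21, 6.00 and 6.27 at ZT12. With HF donors they stood at 8.70, 9.14, 8.51 and 7.98 at ZT0 and at 5.40, 6.93, 6.27 and 6.23 at ZT12. With KD donors they stood at 8.47, 8.37, 8.49 and 10.45 at ZT0 and at 6.12, 6.53, 6.31 and 6.29 at ZT12. All 12 arrays of ZT12 lay below all 12 of ZT0, and 1 KD array, replicate 7, stood far above the other ZT0 arrays. The change by donor diet was -2.09 ± 0.37 for NC, -2.37 ± 0.37 for HF and -2.63 ± 0.37 for KD, each past the threshold (adjusted p = 0.00055, 0.000163 and 4.33e-05). Without replicate 7 the KD means differed by -2.13.

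**Figure D2:**
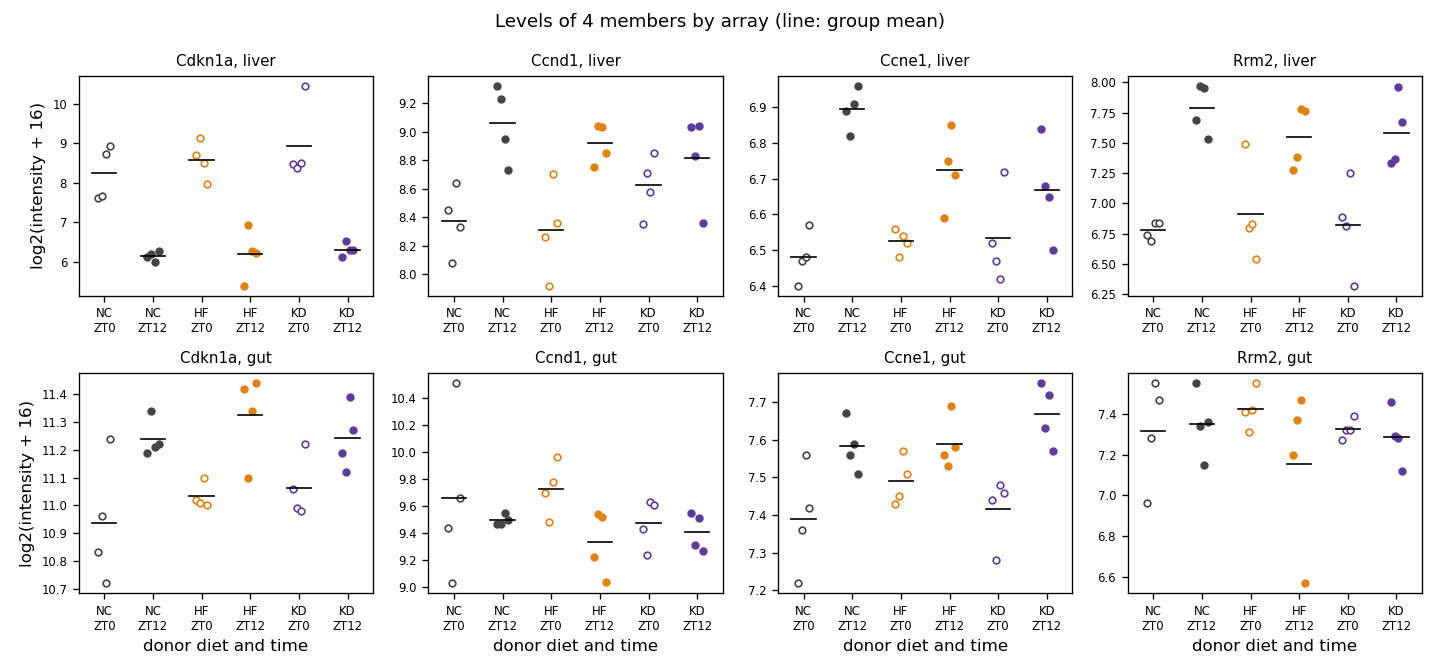
Levels of Cdkn1a, Ccnd1, Ccne1 and Rrm2 in log2(intensity + 16), 1 point an array, by donor diet and time, for liver (top) and gut (bottom), with lines for group means and a separate scale in each panel. In liver all 12 ZT12 arrays of Cdkn1a lie below 7 and all 12 ZT0 arrays above 7.5.

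Cyclin D1, which carries growth signals into G1, moved the other way. In liver Ccnd1 lay between 7.92 and 8.85 at ZT0, with a median of 8.40, and between 8.36 and 9.32 at ZT12, with a median of 8.99. The times overlapped in range, and the rise was 0.49 ± 0.09 over all donors (adjusted p = 0.000333), 0.69 ± 0.16 with NC donors (adjusted p = 0.00807) and 0.60 ± 0.16 with HF donors (adjusted p = 0.0232). With KD donors the difference did not pass, with 8.35, 8.71, 8.58 and 8.85 at ZT0 and 9.03, 8.83, 9.04 and 8.36 at ZT12.

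Rrm2, the regulated subunit of the enzyme that makes deoxyribonucleotides, rose in liver by 0.80 ± 0.11 (adjusted p = 3.68e-06). With NC donors it stood at 6.74, 6.69, 6.84 and 6.84 at ZT0 and at 7.69, 7.97, 7.95 and 7.53 at ZT12, without overlap. By donor diet the rise was 1.01 ± 0.19 for NC, 0.63 ± 0.19 for HF and 0.77 ± 0.19 for KD (adjusted p = 0.000739, 0.0356 and 0.00943). HF replicate 2, at 7.49, was the one ZT0 array above the lowest ZT12 array of its donor group. Cyclin E1 (Ccne1), which opens S phase, rose by 0.25 ± 0.04 (adjusted p = 7.87e-05) and by 0.41 ± 0.07 with NC donors. Its NC arrays stood at 6.40, 6.47, 6.48 and 6.57 at ZT0 and at 6.89, 6.82, 6.91 and 6.96 at ZT12.

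The smaller rises in liver were those of the licensing factor Cdt1 (0.22 ± 0.05), cyclin E2 (0.19 ± 0.05) and Cdc45 (0.13 ± 0.04). The falls were those of Kif11 (-0.23 ± 0.05), Mcm7 (-0.18 ± 0.05) and cyclin B1 (Ccnb1, -0.15 ± 0.04). Kif11 lay between 5.59 and 5.98 at ZT0 and between 5.42 and 5.78 at ZT12, and fell by 0.26 with KD donors (adjusted p = 0.0471). Mki67 (-0.13 ± 0.06), Top2a (-0.09 ± 0.15), Pcna (-0.10 ± 0.06) and Mcm2 (0.04 ± 0.05) did not pass. The brightest Top2a cluster in liver is another one than in gut, and its liver arrays spread from 5.82 to 7.74. By donor, 4 members were called with NC, 3 with HF and 3 with KD donors, against 9.08%, 7.86% and 8.64% of all genes. The shares of all genes called higher and lower were 4.23% and 4.85% with NC, 3.16% and 4.7% with HF, and 3.33% and 5.31% with KD donors. Without HF ZT0 replicate 3 or HF ZT12 replicate 10 the HF count was 1, without KD ZT12 replicate 12 the KD count was 1, and without KD ZT0 replicate 7 it was 5.

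Other regulators moved in liver at the same times. Wee1, which holds cells before mitosis, rose by 2.18 ± 0.10 (adjusted p = 2.42e-14), by 2.34 with NC, 2.14 with HF and 2.05 with KD donors. The growth factor response gene Myc rose by 1.24 ± 0.33, the replication initiation gene Mcm10 by 1.04 ± 0.10 and thymidine kinase (Tk1) by 0.46 ± 0.05. The antiproliferative gene Btg2 (-0.48 ± 0.10) and the inhibitor gene Cdkn1b (-0.26 ± 0.06) fell. In all, 6 of 20 other regulators rose and 5 fell, and 4 of 32 other S phase genes rose and 4 fell. Of 37 other mitosis genes 1 rose and 5 fell, where 13.2% of all genes rose and 15.1% fell. Mdm2 and Ccng1 are on the lists of other regulators and of p53 targets alike. Of 11 other p53 targets 4 fell, Trp53inp1 (-0.67 ± 0.15), Sesn2 (-0.32 ± 0.09), Ccng1 (-0.16 ± 0.05) and Bax (-0.16 ± 0.05), and 0 rose. Of 6 Kupffer cell and macrophage genes 3 fell in liver at ZT12, with a median of -0.30, and their part in these differences was not tested.

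In gut the calls were mostly of genes lower at ZT12, among them 6 mitosis members. All 19 had a mean difference below 0, with a median of -0.21 against 0 over all genes. Mitosis members vary together in gut, with a mean pair correlation of 0.85, so the 19 are not independent results. Those that fell were Plk1, Bub1, Bub1b, Cenpe, Kif20a and Kif11. Of the S phase members Tyms, Mcm3 and Mcm7 fell and Ccne1 rose, and of the G1 regulators Cdkn1a rose. These 11 are 27.5% of the members, where 21.5% of all genes passed, 10.3% higher and 11.2% lower. With arrays centred on their median in place of quantile normalisation the count was 23, of which 2 were higher and 21 lower. Of 37 other mitosis genes all 37 were below 0 and 18 fell. Among them were the mitotic transcription factor Foxm1 (-0.34 ± 0.08), the kinesin Kif2c (-0.32 ± 0.09), Ube2c (-0.32 ± 0.09) and the centromere histone Cenpa (-0.28 ± 0.07). The mean of these 37 genes correlated with that of the mitosis members at 0.99 within groups. Their shared direction is therefore not separate evidence.

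Plk1, the kinase that drives entry into and passage through mitosis, stood with NC donors at 8.41, 8.47, 9.29 and 9.03 at ZT0 and at 8.49, 8.43, 8.18 and 8.29 at ZT12. With HF donors it stood at 8.5, 8.57, 8.83 and 9.08 at ZT0 and at 8.18, 8.21, 9.02 and 8.14 at ZT12. With KD donors it stood at 8.70, 8.52, 8.77 and 8.66 at ZT0 and at 8.29, 8.33, 8.52 and 8.41 at ZT12. Most ZT12 arrays were lower, the HF array of replicate 10 was not, and the fall over all donors was -0.36 ± 0.10, or 1.29-fold (adjusted p = 0.0168).

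Bub1b, a checkpoint kinase that delays anaphase, lay between 7.73 and 8.11 at ZT0, with a median of 7.99, and between 7.38 and 8.08 at ZT12, with a median of 7.63. It fell by 0.32 ± 0.07 (adjusted p = 0.00326), the smallest p-value of a mitosis member in gut. Bub1, its partner at the kinetochore, fell by 0.33 ± 0.10 from a median of 7.56 to 7.22. The kinetochore motor Cenpe (-0.30 ± 0.10), the kinesin of cytokinesis Kif20a (-0.25 ± 0.09) and Kif11 (-0.23 ± 0.08) fell with adjusted p = 0.042, 0.0471 and 0.0441. Mki67 lay between 9.76 and 10.31 at ZT0 and between 9.46 and 10.28 at ZT12 and did not pass (-0.19 ± 0.08, adjusted p = 0.103), nor did Top2a (-0.19 ± 0.08, adjusted p = 0.122).

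**Figure D3:**
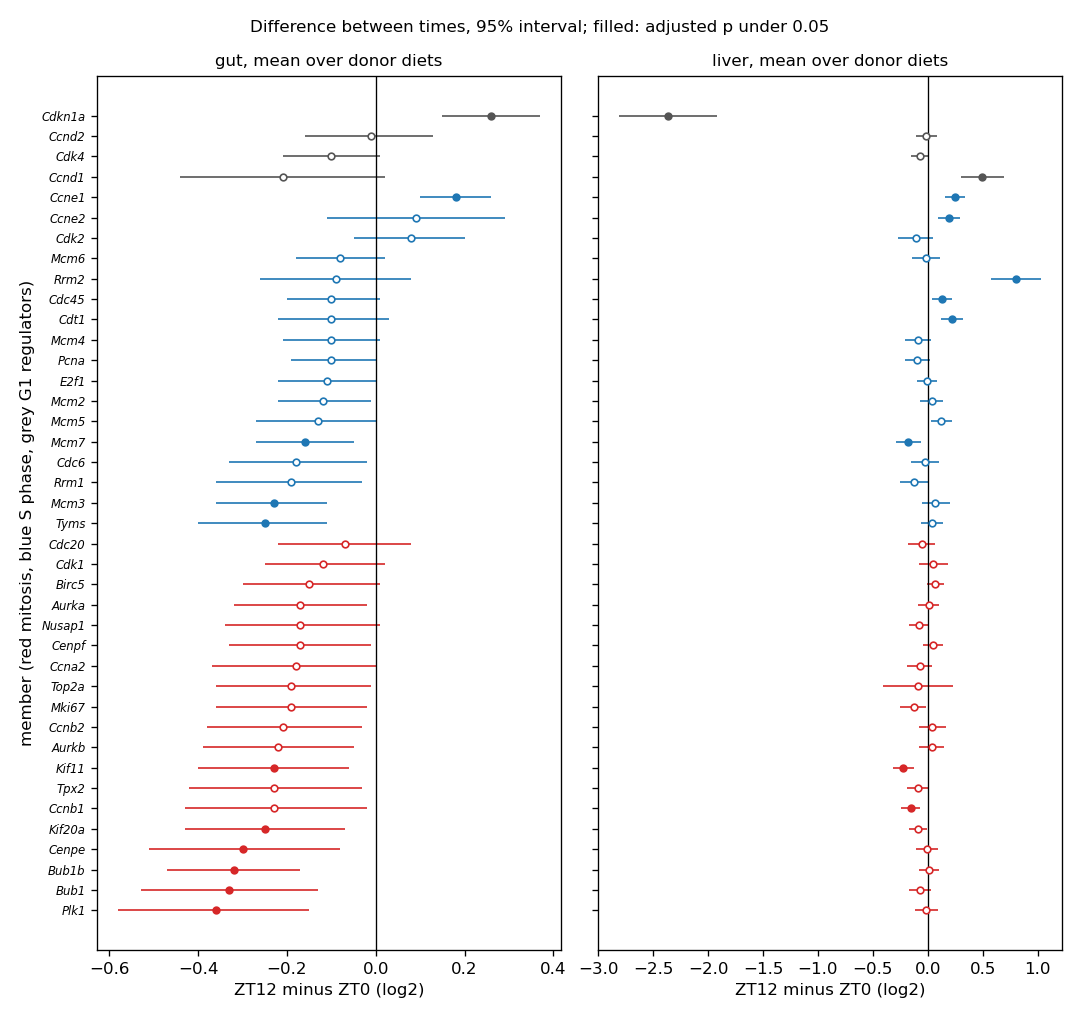
ZT12 minus ZT0 on the log2 scale for each member in gut (left) and liver (right), averaged over donor diets, with 95% intervals and filled points for adjusted p under 0.05. The x axes differ: all 19 mitosis members lie below 0 in gut, and in liver Cdkn1a stands at -2.37.

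Thymidylate synthase (Tyms), which makes the thymidine nucleotide, fell by 0.25 ± 0.07 in gut (adjusted p = 0.0143), with ZT0 arrays from 8.58 to 9.17 and ZT12 arrays from 8.06 to 8.73. Mcm3 fell by 0.23 ± 0.06 (adjusted p = 0.00911) and Mcm7 by 0.16 ± 0.05 (adjusted p = 0.0327). Ccne1 rose by 0.18 ± 0.04 (adjusted p = 0.00238), from 7.22 to 7.57 at ZT0 to 7.51 to 7.75 at ZT12. Cdkn1a rose by 0.26 ± 0.05 (adjusted p = 0.00147), with ZT0 arrays from 10.72 to 11.24 and ZT12 arrays from 11.10 to 11.44. Ccnd1 (-0.21 ± 0.11), Pcna (-0.10 ± 0.05) and Mcm2 (-0.12 ± 0.05) did not pass.

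Of the 11 calls in gut 4 did not survive the loss of single arrays. Cenpe was lost without any of 17 arrays, Kif11 and Kif20a without any of 16 each and Mcm7 without any of 11, while the other 7 kept adjusted p under 0.05 without any 1 array. The count was 7 without NC ZT0 replicate 4 or 6, HF ZT0 replicate 5, KD ZT0 replicate 6, HF ZT12 replicate 8, 9 or 12, KD ZT12 replicate 13 or NC ZT12 replicate 12, 17 without NC ZT0 replicate 1 and 23 without HF ZT12 replicate 10. With the mean B cell marker level of each array as a covariate, added after the data were seen, it was 12.

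Cell type markers moved with time in gut too. Of all genes 10.3% rose and 11.2% fell. Of 8 crypt stem cell genes 3 fell, Olfm4 (-0.31 ± 0.08), Tnfrsf19 (-0.17 ± 0.05) and Smoc2 (-0.12 ± 0.04), and 0 rose. The median of the 8 was -0.07, with 1 gene above 0. Of 9 enterocyte genes 3 rose, the glucose transporter Slc5a1 (0.55 ± 0.06), sucrase (Sis, 0.34 ± 0.04) and villin (Vil1, 0.13 ± 0.04), and 0 fell. The median of the 9 was only 0.08, with 2 genes below 0. Of 10 hepatocyte genes 2 fell, Alb (-1.35 ± 0.41) and Cps1 (-0.21 ± 0.06), and the median was -0.30. All 9 B cell genes and all 5 Paneth cell genes were below 0 without passing, with medians of -0.38 and -0.10. Within groups, over 24 arrays, the mean of the mitosis members correlated with the mean of the enterocyte genes at -0.70, of the goblet cell genes at 0.63, of the hepatocyte genes at -0.53, of the Paneth cell genes at 0.49, of the plasma cell genes at -0.49, of the crypt stem cell genes at 0.48 and of the B cell genes at -0.18. What part cell composition has in the difference between times was not tested.

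By donor, the gut counts were 0 members with NC, 3 with HF and 1 with KD donors, against 2.39%, 3.32% and 4% of all genes. The shares of all genes called higher and lower were 1.22% and 1.17% with NC, 1.49% and 1.83% with HF, and 2.12% and 1.88% with KD donors. At unadjusted p under 0.05 they were 10 (25%), 20 (50%) and 2 (5%), where 14.9%, 19.2% and 20.7% of all genes were, so the KD share of members was below that of all genes. With HF donors Mcm3, Mcm6 and Mcm7 fell, by 0.48 ± 0.11, 0.32 ± 0.09 and 0.40 ± 0.09 (adjusted p = 0.0125, 0.039 and 0.0168). Mcm3 stood at 7.82, 7.64, 7.84 and 7.76 at ZT0 and at 7.33, 7.33, 7.44 and 7.04 at ZT12. Mcm6 stood at 8.75, 8.64, 8.61 and 8.78 at ZT0 and at 8.49, 8.28, 8.40 and 8.32 at ZT12. Mcm7 stood at 8.5, 8.38, 8.31 and 8.48 at ZT0 and at 7.99, 7.95, 8.24 and 7.91 at ZT12. In none of these 3 genes did the times overlap with HF donors. They were picked by the same comparison, so this is not separate support, and the share of all genes without overlap was not counted. With KD donors Ccne1 rose by 0.26 ± 0.07 (adjusted p = 0.0368), from 7.44, 7.28, 7.48 and 7.46 to 7.75, 7.63, 7.72 and 7.57.

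These small counts rest on few arrays. The HF count was 1 without ZT0 replicate 1 or 5, 0 without ZT12 replicate 12 and 10 without ZT12 replicate 10. The KD count was 0 without ZT0 replicate 1 or 4 or ZT12 replicate 8, 10 or 12, and 0 with the B cell covariate. The NC count was 1 without ZT0 replicate 6. The difference of the time effect between donor diets was called for 0 members in either tissue by limma, where at most 0.00483% of all genes were.

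**Figure D4:**
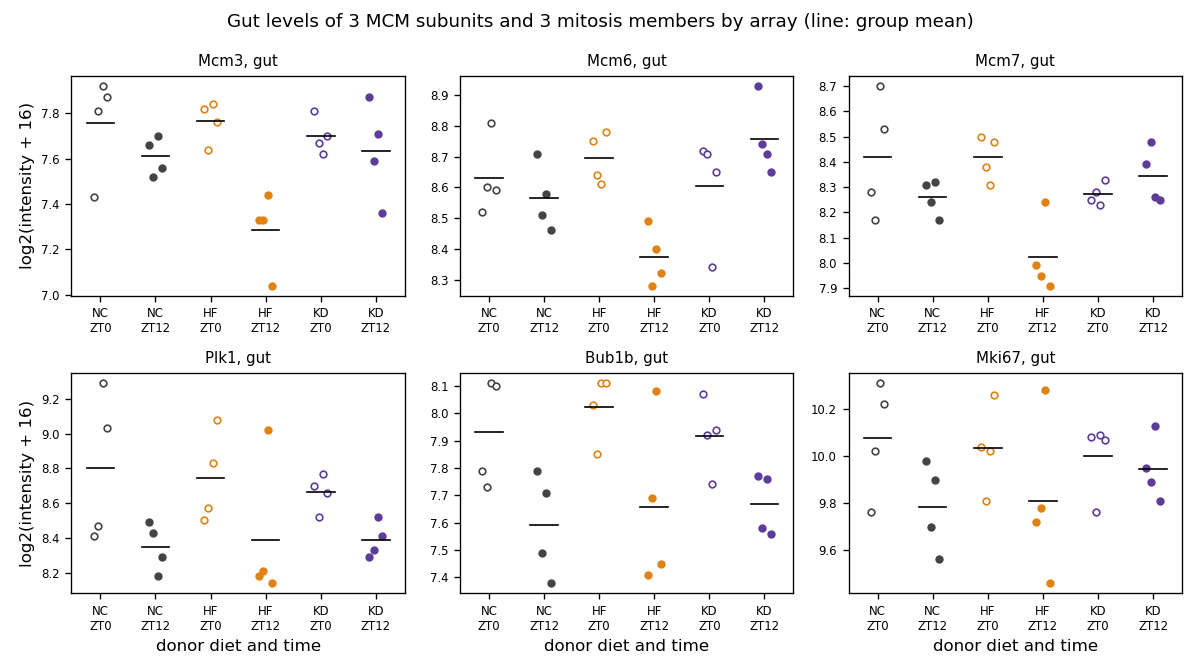
Gut levels in log2(intensity + 16) of Mcm3, Mcm6, Mcm7, Plk1, Bub1b and Mki67, 1 point an array, by donor diet and time, with lines for group means and a separate scale in each panel. With HF donors the ZT12 arrays of the 3 MCM subunits lie below the ZT0 arrays, and 1 ZT12 array of HF donors, at 9.02, stands apart in Plk1.

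Other regulators also changed in gut. Wee1 rose by 0.50 ± 0.05 (adjusted p = 3.35e-07), by 0.52, 0.44 and 0.53 with NC, HF and KD donors. The retinoblastoma gene Rb1, a brake on E2F factors, rose by 0.49 ± 0.06, E2f2 fell by 0.80 ± 0.08 and the p53 gene Trp53 fell by 0.38 ± 0.06. In all 5 of 20 other regulators rose and 5 fell, and of 32 other S phase genes 0 rose and 5 fell. Of all genes in gut 10.3% rose and 11.2% fell. Of 11 other p53 targets 1 rose, Mdm2 (0.24 ± 0.08), and 0 fell.

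The time difference itself differed between the tissues for 10 members (25%), where 17.6% of all genes passed, 8.76% higher and 8.81% lower. Cdkn1a was the one member with a higher value in gut, by 2.66 ± 0.23 (adjusted p = 1.3e-11), since it rose in gut and fell in liver. The other 9 were lower in gut: Rrm2 (-0.90 ± 0.14), Ccnd1 (-0.71 ± 0.16), Plk1 (-0.34 ± 0.12), Bub1b (-0.33 ± 0.09), Cdt1 (-0.32 ± 0.08), Mcm3 (-0.31 ± 0.09), Tyms (-0.29 ± 0.09), Mcm5 (-0.25 ± 0.08) and Cdc45 (-0.23 ± 0.07). Wee1, with a difference of -1.73 ± 0.11, rose less in gut. Without gut HF ZT12 replicate 10 the count was 16.

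Members varied together more in gut than in liver. Over the deviations of 24 arrays from their group means, the mean correlation between pairs of mitosis members was 0.85 in gut and 0.08 in liver, where pairs of all genes gave 0.00623 and 0.00453. Pairs of S phase members gave 0.44 in gut and 0.06 in liver, and pairs across the 2 roles gave 0.55 and 0.02. These correlations are descriptions, and arrays of a tissue share their normalisation. Most mitosis members are dim in liver, and the part of this in the low correlations was not tested.

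Every mitosis member in gut had a mean correlation with the others between 0.73 (Cdc20, which activates the anaphase ubiquitin ligase) and 0.90 (Ccnb1). Their SD within groups was between 0.17 and 0.28. Ccnd2 had the lowest mean correlation with mitosis members, -0.24, and -0.02 with S phase members. Ccne2 had mean correlations of -0.12 with S phase and 0 with mitosis members, as did Cdkn1a. Cdk4 (0.62 and 0.72) and Ccnd1 (0.52 and 0.63) varied with the dividing genes in gut. In liver Cdkn1a had the largest SD within groups, 0.60.

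The arrays that carry this variation were read from the mean of each role, with every member centred on its own mean in the tissue. In gut the mitosis mean was highest with NC ZT0 replicate 4 (0.41), HF ZT0 replicate 5 (0.40), HF ZT12 replicate 10 (0.35) and NC ZT0 replicate 6 (0.32). It was lowest with HF ZT12 replicate 12 (-0.40), NC ZT12 replicate 12 (-0.33) and HF ZT12 replicate 8 (-0.29). Arrays of 1 group thus lay almost as far apart as any: HF ZT12 spanned -0.40 to 0.35. The S phase mean correlated with the mitosis mean at 0.86 over the 24 gut arrays, within groups, and at 0.07 in liver, where the mitosis mean stayed between -0.07 and 0.17.

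**Figure D5:**
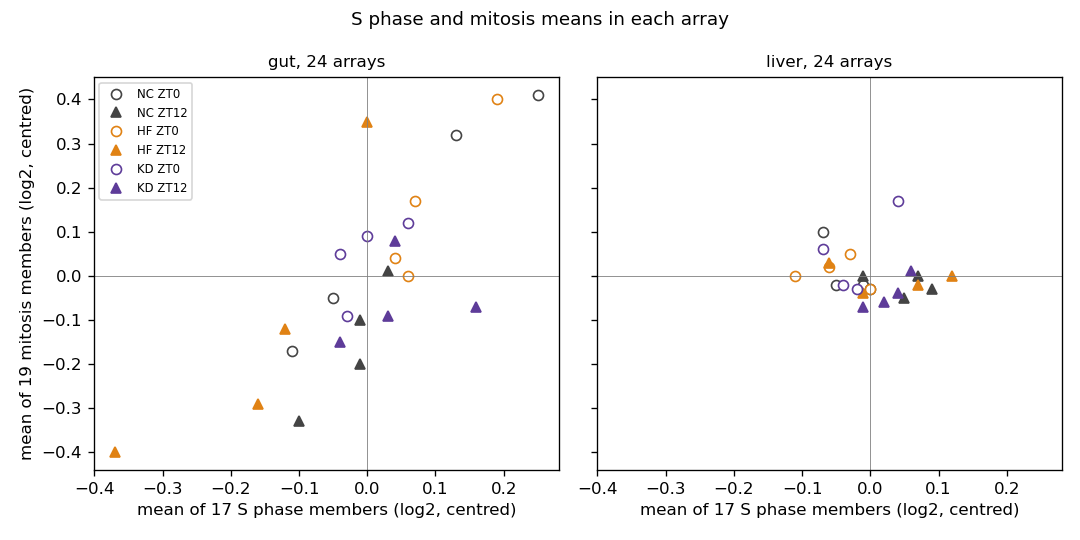
Mean of the 17 S phase members (x) against mean of the 19 mitosis members (y) in each array, each member centred on its mean in the tissue (log2), with colours for donor diets, open circles for ZT0 and filled triangles for ZT12. The gut arrays stretch from -0.40 to 0.41 on the mitosis axis, and the liver arrays from -0.07 to 0.17.

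The balance between the roles was compared as a description. The S phase mean minus the mitosis mean had a median of -0.08 over the 12 gut arrays of ZT0, with a range of -0.21 to 0.06, and of 0.10 over those of ZT12, with a range of -0.35 to 0.23. HF ZT12 replicate 10 was the array at -0.35, with a mitosis mean of 0.35 beside an S phase mean of 0. In gut 13 of the 17 S phase members were lower at ZT12 with NC, 16 with HF and 6 with KD donors. Of the 19 mitosis members 19, 19 and 17 were, where the median difference over all genes was -0.01, 0 and 0. Pairs of members correlated at a mean of 0.44 (S phase) and 0.85 (mitosis), so these counts are not of independent results. The time effect was called as different between donor diets for 0 members.

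Between donor diets 0 of 40 members passed in either tissue at either time by limma, in any of the 3 pairs of diets. The same was so averaged over the times, and 0 members passed when the p-values of the authors' deposited tables were adjusted anew over each table. The lowest such adjusted p of a member was 0.328, although some members, among them Mcm2 and Tyms in gut at ZT12, had p = 0.0306 (HF against NC) and 0.0317 (KD against NC) in the authors' deposited tables before adjustment. The share of all genes that passed in limma was 0% in each of the 12 comparisons at single times except KD against NC in gut at ZT12, with 0.00483%. Averaged over the times it was 0% except for HF against NC in gut and KD against NC in liver, with 0.00483% each. For the authors' deposited tables that share was not counted. A p above the threshold does not show that donors had no effect, and the standard errors of single members were between 0.07 and 0.19 in gut.

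Counted at unadjusted p in limma, the most members stood apart between donor diets in gut at ZT12. HF minus KD was at unadjusted p under 0.05 for 11 of 40 members (27.5%), where 3.65% of all genes were. All 11 were S phase members of 17, all lower with HF donors, and 0 of 19 mitosis members were among them. S phase members vary together in gut, with a mean pair correlation of 0.44, so the 11 are not independent results. HF ZT12 replicate 10 had a mitosis mean of 0.35, where the other HF arrays had -0.40, -0.29 and -0.12. With KD donors the range was -0.15 to 0.08. How far the split between the roles rests on replicate 10 was not tested. Mcm6 had the smallest p: its HF arrays stood at 8.49, 8.28, 8.40 and 8.32 and its KD arrays at 8.93, 8.74, 8.71 and 8.65, which do not overlap. The difference was -0.39 ± 0.09, and limma gave it an adjusted p = 0.999 over all genes (unadjusted 0.000159). Mcm3 (-0.35 ± 0.11) and Mcm7 (-0.33 ± 0.09) followed. The B cell marker mean of these groups was 5.64 to 8.30 with HF and 5.63 to 5.77 with KD donors, and its part was not tested for this comparison alone.

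HF minus NC in gut at ZT12 gave 5 members (12.5%) at unadjusted p under 0.05 in limma, where 9.39% of all genes were. The count is thus near the share of all genes. The 5 were the helicase subunits Mcm2, Mcm3, Mcm4, Mcm6 and Mcm7, all lower with HF donors. S phase members vary together in gut, so the 5 are not independent results. Mcm3 had the smallest p, with NC arrays at 7.66, 7.52, 7.70 and 7.56 and HF arrays between 7.04 and 7.44 (-0.32 ± 0.11, adjusted p = 0.345). In the authors' deposited table the ratio of means for Mcm3 was 0.795 with p = 0.0495, and for Mcm6 0.851 with p = 0.0273. KD minus NC was led by Mcm6 (0.19 ± 0.09, adjusted p = 0.469). These comparisons share the HF, KD or NC arrays and are not independent of each other.

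At ZT0 in gut the smallest p-values were those of the survivin gene Birc5 for HF minus KD (0.27 ± 0.13) and HF minus NC (0.24 ± 0.13), and of Mcm7 for KD minus NC (-0.15 ± 0.09). In liver at ZT0 they were those of the mitotic kinase Aurkb for HF minus KD (-0.23 ± 0.10), Ccne2 for HF minus NC (-0.15 ± 0.08) and the spindle protein Nusap1 for KD minus NC (0.19 ± 0.07). In liver at ZT12 they were those of Plk1 for HF minus KD (0.17 ± 0.08) and of Ccne1 for HF minus NC (-0.17 ± 0.07) and KD minus NC (-0.23 ± 0.07). All of these had adjusted p of 0.929 or more in limma. Cdkn1a in liver at ZT0 differed by 0.70 ± 0.37 for KD minus NC, the largest difference of a member between donors in either tissue, and its KD mean was 8.44 without replicate 7 beside an NC mean of 8.25.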

How the data were processed

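Each of the 48 samples was 1 array of RNA that was extracted with TRIzol and RNeasy columns, per the labels' protocols. The deposited values are linear intensity per transcript cluster, made with PLIER per the submitters' processing notes, and no version, genome build or annotation is given in the sources used here. The authors' deposited comparison tables give a p-value and a ratio of means for HF or KD against NC by tissue and time.

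The intensity + 16 was taken to log2 and quantile normalised within a tissue, or over all 48 arrays for comparisons between tissues. Of 35556 clusters 23811 had a symbol, and the brightest cluster of each of 20697 genes was kept. Groups came from titles and labels. Models had 1 mean for each group and were fitted with limma 3.58.1 in R 4.3.3 over all named genes, with 2-sided p-values, Benjamini-Hochberg adjustment and a threshold of 0.05. Scripts were tested on simulated data. The main models did not pair samples by replicate number or mouse code. The mean correlation of deviations was 0.00132 over 16 pairs of the same number in gut and -0.0754 over 12 in liver. It was 0.0197 over 15 pairs of the same mouse code in gut and liver. Of 33 mouse codes 15 occur in both tissues, and low correlations cannot settle whether a code names the same animal.

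Named were Mki67, Top2a, Pcna, Mcm2, Ccnd1 and Cdkn1a, the 3 largest and 3 smallest tissue differences of each role, members that passed a time or donor comparison (the 10 of largest difference where more did), the member of smallest p between donors and up to 4 called genes of each other list, with Wee1. Other genes were chosen after their values were seen. The members and lists were chosen with earlier results of these data known. Alternatives were no quantile step, median centring, an offset of 1, array weights, an intensity trend with a robust prior, the mean of all clusters of a gene, dim genes left out, only the groups compared or only NC donors, the authors' deposited p-values, a random replicate block and each array left out.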

Additional observations from a re-analysis of the deposited data

Results flagged for a closer look

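Single arrays were looked for in 144 groups of 4 with Dixon's criterion at the 95% level, and 7 stood apart, which is the number that chance gives at about 1 in 20 groups. In gut with KD donors at ZT0, replicate 4 was low in Mki67 (9.76, the others 10.07 to 10.09) and in Top2a (9.44, the others 9.74 to 9.76). In gut with HF donors at ZT12, replicate 10 was high in Plk1 (9.02, the others 8.14 to 8.21). In liver with KD donors at ZT0, replicate 3 was high in Pcna (9.32, the others 8.84 to 8.91), and replicate 7 was high in Mcm2 (7.17, the others 6.82 to 6.88) and in Cdkn1a (10.45, the others 8.37 to 8.49). In liver with NC donors at ZT0, replicate 1 had a mean over the mitosis members of 0.10, the others -0.03 to -0.02.

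The time difference differed between gut and liver, tested in limma as gut minus liver, for 10 members. The values were 2.66 for Cdkn1a, -0.90 for Rrm2, -0.71 for Ccnd1, -0.34 for Plk1, -0.33 for Bub1b, -0.32 for Cdt1, -0.31 for Mcm3, -0.29 for Tyms, -0.25 for Mcm5 and -0.23 for Cdc45.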

How the results depend on the processing

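Counts of members called that moved were these. With median centring the gut time count was 23 beside 11, with HF donors 5 beside 3 and with KD donors 0 beside 1, and the liver count with HF donors was 1 beside 3. With dim genes left out the gut HF count was 5. With only the groups compared the gut HF count was 1, the gut KD count 0 and the liver KD count 1. Without the quantile step the liver HF count was 6, the count lower in gut than in liver was 0 beside 3, and the count of time differences between tissues was 16 beside 10. There Cdc45, E2f1 and Rrm2 turned to 0.33, 0.01 and 0.08. With the B cell covariate, chosen after seeing the data, the gut KD count was 0. Leaving out 1 array at a time gave 7 to 23 members for time in gut, 0 to 1 with NC, 0 to 10 with HF and 0 to 1 with KD donors. In liver it gave 9 to 12, and 4 to 6, 1 to 3 and 1 to 5 by donor. It gave 39 to 40 for gut against liver, 2 to 3 for those lower in gut, 9 to 16 for time between tissues and 0 for donors. With the replicate number (between tissues, the mouse code) as a random replicate block the gut time count was 12, the liver count 11, the liver KD count 2 and the tissue count 40. The number of arrays, and dim probes in liver, limit what can be seen.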
